A study of Mus musculus with 34 samples.

Results

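The data are the binding sites of 5 AP-1 monomers, ATF3, Jun, JunD, Fos and JunB, in BALB/cJ macrophages treated with KLA, taken from the 5 of 34 samples whose labels give genotype Balb/cJ, treatment KLA-1h and one of these antigens. The cells were thioglycollate elicited macrophages (TGEMs), drawn from the peritoneum of male 8-week-old mice and kept in culture before treatment. KLA, Kdo2 lipid A, is an agonist of the toll-like receptor TLR4 and was given for 1 h, and PBS was the vehicle (Veh) of the control cells. Each monomer was mapped by ChIP-seq with its own antibody, and the replicates of a condition were combined by the authors into 1 peak list, so no list has a replicate of its own here. The 5 KLA lists held 144114 of the 596383 peaks of the series. Peaks of different lists that shared at least 1 bp were joined, which gave 51861 loci, against 93075 loci when all lists of the series were joined in the same way. The Veh lists of the same strain gave 33546 loci and the KLA lists of the same 5 monomers in C57BL/6 gave 42913.

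AP-1 is a family of basic leucine zipper proteins that bind DNA only as dimers, so each monomer needs a partner. Jun, JunB and JunD can pair with themselves, with each other or with Fos, whereas Fos does not form stable homodimers and depends on a Jun partner. ATF3 is a related factor that pairs with itself and with Jun proteins. The dimers recognise the TPA response element (TRE) and the cyclic AMP response element (CRE), which share the same arms and differ in the spacing between them. In macrophages a toll-like receptor signal raises several of these monomers within the first hour, among them Fos, JunB and ATF3, and the pioneer factors PU.1 and CEBP help to set which sites are open.

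The central 200 bp of a few loci are given first. They are examples of the strongest shared sites, of sites without a Veh peak near Il6, Cxcl10 and Ifnb1, and of sites of 1 monomer. All are the plus strand of the GRCm38 reference, which is the C57BL/6J genome, so BALB/cJ variants are not in them. Capitals mark a TRE (TGACTCA), a CRE (TGACGTCA) or an NFkB motif (GGANTTTCC) on either strand. The first 3 are the loci that ranked highest in all 5 lists at once, and each holds at least 1 TRE.
Mrpl39 (chr16:84627130-84627329): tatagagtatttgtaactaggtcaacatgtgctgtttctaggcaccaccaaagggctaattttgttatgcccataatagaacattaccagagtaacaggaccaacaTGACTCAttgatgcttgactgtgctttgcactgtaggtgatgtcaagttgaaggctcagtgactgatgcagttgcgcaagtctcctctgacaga
Cdc42bpg (chr19:6297715-6297914): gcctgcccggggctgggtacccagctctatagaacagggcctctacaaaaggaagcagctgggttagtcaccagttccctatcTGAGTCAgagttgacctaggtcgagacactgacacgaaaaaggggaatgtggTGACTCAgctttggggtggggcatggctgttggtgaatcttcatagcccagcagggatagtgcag
Sfn (chr4:133614463-133614662): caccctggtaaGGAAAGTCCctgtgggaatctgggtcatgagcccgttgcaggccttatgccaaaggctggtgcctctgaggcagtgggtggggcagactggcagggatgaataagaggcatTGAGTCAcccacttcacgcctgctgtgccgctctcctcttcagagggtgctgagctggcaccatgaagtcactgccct
The next 3 were bound by all 5 monomers with KLA, had no Veh peak and lie just upstream of the starts of Il6, Cxcl10 and Ifnb1, which encode 2 cytokines and interferon beta. The Il6 window holds a TRE, the Ifnb1 window an NFkB motif, and the Cxcl10 window both.
Il6 (chr5:30012806-30013005): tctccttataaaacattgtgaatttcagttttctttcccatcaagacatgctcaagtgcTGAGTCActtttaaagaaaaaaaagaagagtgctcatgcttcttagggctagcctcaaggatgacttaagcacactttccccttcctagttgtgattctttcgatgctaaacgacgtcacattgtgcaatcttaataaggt
Cxcl10 (chr5:92348913-92349112): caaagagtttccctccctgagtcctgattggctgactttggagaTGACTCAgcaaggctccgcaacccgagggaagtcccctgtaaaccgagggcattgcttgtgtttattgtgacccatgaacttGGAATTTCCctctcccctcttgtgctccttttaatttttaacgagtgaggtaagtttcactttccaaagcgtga
Ifnb1 (chr4:88522811-88523010): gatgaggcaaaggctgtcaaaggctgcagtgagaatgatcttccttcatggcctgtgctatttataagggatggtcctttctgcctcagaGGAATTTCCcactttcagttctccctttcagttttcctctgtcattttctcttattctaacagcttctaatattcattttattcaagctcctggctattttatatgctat
The last 5 are the loci with the highest count among those bound by 1 monomer alone, and 2 of them, those of ATF3 and JunD, hold none of the 3 motifs. The locus of JunD lay next to a locus of Jun, JunD and Fos without touching it.
ATF3 alone, nearest start Popdc2 (chr16:38394414-38394613): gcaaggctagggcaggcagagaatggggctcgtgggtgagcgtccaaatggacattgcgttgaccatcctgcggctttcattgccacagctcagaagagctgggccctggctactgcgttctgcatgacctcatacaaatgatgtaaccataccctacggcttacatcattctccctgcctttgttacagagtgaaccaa
Jun alone, nearest start Ric8b (chr10:84917390-84917589): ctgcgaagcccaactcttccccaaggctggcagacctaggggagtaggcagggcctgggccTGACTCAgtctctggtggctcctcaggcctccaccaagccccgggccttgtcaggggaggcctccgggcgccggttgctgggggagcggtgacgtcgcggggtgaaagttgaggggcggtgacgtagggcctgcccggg
JunD alone, nearest start Tnf (chr17:35198298-35198497): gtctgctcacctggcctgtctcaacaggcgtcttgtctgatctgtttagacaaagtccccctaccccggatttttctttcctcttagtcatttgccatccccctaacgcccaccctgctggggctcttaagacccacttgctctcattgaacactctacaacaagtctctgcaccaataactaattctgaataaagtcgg
Fos alone, nearest start Plpp3 (chr4:105261443-105261642): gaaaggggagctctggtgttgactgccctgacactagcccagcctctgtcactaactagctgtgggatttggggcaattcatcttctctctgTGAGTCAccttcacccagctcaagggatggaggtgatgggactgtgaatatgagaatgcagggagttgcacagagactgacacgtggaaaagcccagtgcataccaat
JunB alone, nearest start Msmo1 (chr8:64726266-64726465): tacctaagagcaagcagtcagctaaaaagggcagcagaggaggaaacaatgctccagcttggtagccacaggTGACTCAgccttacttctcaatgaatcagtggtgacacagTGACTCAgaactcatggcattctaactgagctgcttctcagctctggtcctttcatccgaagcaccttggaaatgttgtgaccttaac

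The lists differed in length, and any count of shared sites has to be read with that. Fos had 40459 peaks, ATF3 36821, JunD 33850, JunB 21667 and Jun 11317, with a median width of 228 to 241 bp. The deposited count of each peak, a whole number of reads per peak, had a median of 65 for Fos, 49 for JunD, 44 for ATF3, 42 for JunB and 36 for Jun. Summed over a list it came to 3569846 for Fos and 474082 for Jun. In Veh, JunD had 28652 peaks, ATF3 19506, Jun 10957 and JunB 9, and the Fos list was empty. The Veh state of a locus therefore rested almost wholly on ATF3, Jun and JunD. Of the cell type markers, 10 of 12 macrophage genes, among them Csf1r, Cd14 and Lyz2, had a locus of all 5 monomers within 5 kb, as did 0 of 8 T cell, 1 of 6 B cell and 0 of 6 hepatocyte genes, beside 16.7% of all protein-coding genes. Of the macrophage genes, Marco had no locus and Fcgr1 at most 2 monomers, and the B cell gene was Ms4a1. Of 8 neutrophil genes 4 had such a locus (Mpo, S100a8, Camp and Ltf), while Ly6g and S100a9 had no locus at all, and a part of neutrophils in these results was not tested. Binding near a gene is not its expression, and shares below carry 95% Wilson intervals that cover the counting of loci only, not the spread between animals.

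Loci with a single monomer and loci with several were both common. Of the 51861 loci, 14915 (28.8%, interval 28.4 to 29.2) had 1 monomer, 9791 (18.9%) had 2, 8223 (15.9%) had 3, 10184 (19.6%) had 4 and 8748 had all 5. The last class, 16.9% of the loci, is the one that the loci near each list of genes are read against. All 31 possible combinations occurred, but 11 of them, with 1000 loci or more each, held 92.5% of the loci. The combination of all 5 was the most frequent, followed by 8570 loci with every monomer except Jun. Among single monomers, Fos was found alone at 6093 loci, ATF3 at 4147, JunD at 4096, JunB at 480 and Jun at 99. ATF3, JunD and Fos shared 5257 loci, and ATF3 and Fos 4702. Jun and JunB without any other monomer met at only 6 loci. When each list was cut to its 11317 strongest peaks, so that all had equal length, 29.3% of the loci had all 5 monomers and 28.1% had 1.

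**Figure D1:**
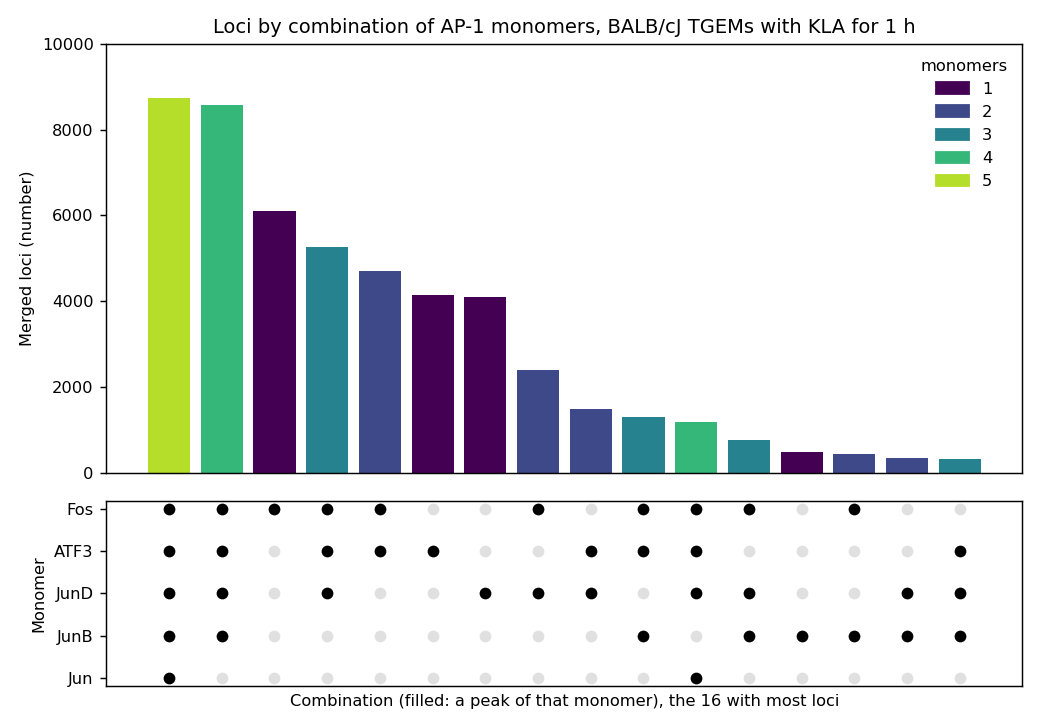
Merged loci (number, upper panel) for the 16 most frequent combinations of the 5 monomers in BALB/cJ TGEMs with KLA, coloured by the number of monomers; filled points in the lower panel show which monomers had a peak. The combination of all 5 has 8748 loci and the one without Jun 8570, while Jun appears in only 2 of the 16.

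Pairwise overlap depended on list length, and the order of the pairs turned when the lists were made equal. With the lists as deposited, the short Jun list was the most contained. Of the Jun peaks, 95.4% lay at a Fos peak, 94.5% at an ATF3 peak, 93.0% at a JunD peak and 81.5% at a JunB peak. JunB followed, with 93.2% of its peaks at Fos, 89.7% at ATF3 and 87.6% at JunD, but 42.6% at Jun. In the other direction, 26.8% of Fos peaks, 29.1% of ATF3 peaks and 31.2% of JunD peaks were at a Jun peak. The 3 longest lists shared between 67.3% (Fos peaks at JunD) and 82.2% (ATF3 peaks at Fos) with each other. As a share of the loci with either monomer, ATF3 and Fos met at 64.6%, the highest of the 10 pairs at these lengths, and Jun and Fos at 26.5%, the lowest. With the 11317 strongest peaks of each list, Jun became the least contained, with 60.9% to 63.0% of its peaks at the other monomers. This length is that of the whole Jun list, so Jun kept its weakest peaks and the other lists lost theirs. Shares among ATF3, JunD, Fos and JunB then ran from 77.2% to 84.0%, with Fos and JunB the closest pair and Jun and JunB the most distant at 60.9%. Peaks of 2 monomers at the same locus were close together. The median distance between their centres ran from 18.5 bp for ATF3 and Fos to 25 bp for Jun with JunD or JunB, and 78.9% to 86.7% were within 50 bp.

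Where 2 monomers shared a locus their counts rose and fell together. Spearman's rho over shared loci was highest for Fos and JunB, at 0.90 over 20173 loci, and lowest for ATF3 and JunD, at 0.81 over 25780 loci. The 3 pairs of ATF3 with JunD, JunB and Jun had the lowest values (0.81, 0.82 and 0.83), and the pairs among Jun, JunD, Fos and JunB ran from 0.84 to 0.90. Over the 8748 loci of all 5 monomers alone, the range was 0.80 to 0.91, with the same pairs at the 2 ends. The same measure in the C57BL/6 KLA lists ran from 0.70 (Jun and Fos) to 0.87 (ATF3 and JunD), so the order of the pairs was not the same in the other strain. The points of such a correlation share the openness and base composition of a site, and the values are descriptions. Counts of 1 monomer with KLA followed those of the same monomer in C57BL/6 with KLA (rho of 0.78 for JunB to 0.85 for JunD) more closely than those in BALB/cJ with Veh (0.58 for Jun, 0.65 for JunD and 0.67 for ATF3), over loci with both.

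**Figure D2:**
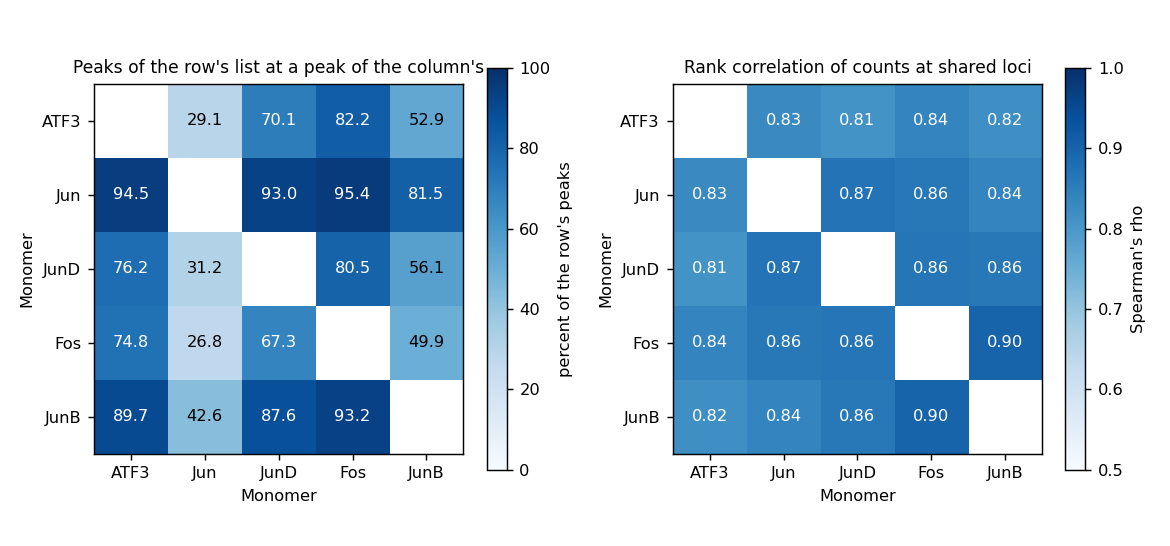
Left, percent of the peaks of the row's monomer that overlap a peak of the column's monomer; right, Spearman's rho of the peak counts over the loci with both monomers. The Jun row is the darkest on the left and the Jun column the palest, with 26.8% to 42.6%, and the Fos and JunB pair has the highest rho, 0.90.

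The number of monomers at a locus moved with the strength of each peak. As the percentile of a peak's count within its own list, the median for Fos was 15.5 where Fos was alone, 27.2 with 1 other monomer, 41.2 with 2, 65.3 with 3 and 85.2 with all. The corresponding counts for Fos were 35, 43, 55, 89 and 152 reads. ATF3 rose in the same way from a median percentile of 14.5 alone to 84.1 with all 5, JunD from 11.5 to 81.9, and JunB from 6.3 to 71.9. Jun, with the shortest list, had a median percentile of 6.69 at its 99 lone loci and 59.0 at the loci of all 5. Of the Fos loci in the strongest 10% by count, 80.1% had all 5 monomers and 0 of 4051 had Fos alone (interval up to 0.0947%). In the weakest 10%, 52.3% had Fos alone and 0.0996% had all 5. The weakest 10% of ATF3 had 41.9% alone and 0.395% with all 5, and that of JunD 52.6% and 0.140%. Jun differed, with 5.14% alone and 34.1% with all 5 in its weakest 10%, and JunB had 14.3% and 6.89%.

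Many KLA loci were already bound by some AP-1 monomer in untreated cells, and this share climbed with the number of monomers. Over all loci 51.1% had a BALB/cJ Veh peak of any monomer. It was 26.3% (interval 25.6 to 27.0) at loci of 1 monomer, 41.5% at 2, 52.3% at 3, 67.0% at 4 and 84.3% (83.5 to 85.0) at 5. The share at lone loci depended on the lists. It was 53.1% with the strongest 50% of each KLA list, 62.5% with KLA lists of equal length and 6.16% with the strongest 50% of each Veh list, where loci of all 5 had 90.5%, 91.0% and 71.0%. Of the 8748 loci of all 5 monomers, 4429 had 3 monomers in Veh, 1722 had 2, 1217 had 1, 1374 had none and 6 had 4. Because strength also climbed with number, the loci were split into 5 equal bins by the highest percentile among their peaks. Within the strongest bin the share with a Veh peak was 89.4% at 5 monomers, between 77.7% and 81.6% at 2 to 4, and 47.5% (32.9 to 62.5) at 1, the last over 40 loci. Within the middle bin it was 58.6% at 5 and 40.2% at 1. The gap between 1 and 5 monomers was smaller within bins than over all loci, and the intervals were apart in the upper 3 bins. Strength was not equal inside a bin. The median highest percentile in the strongest bin was 92.7 at 5 monomers and 85.8 at 1. In the second weakest bin the 25 loci of all 5 monomers had 36.0% (20.2 to 55.5), an interval that holds the 31.2% of lone monomers.

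**Figure D3:**
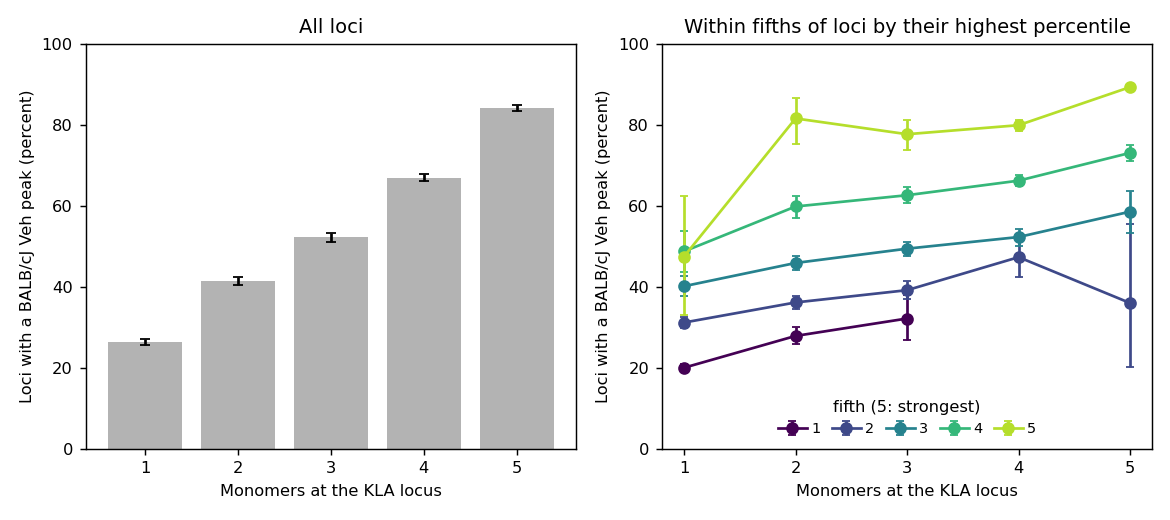
Percent of KLA loci with a BALB/cJ Veh peak of any monomer by the number of monomers with KLA, over all loci (left) and within 5 equal bins of the loci by their highest within-list percentile (right, classes of 20 loci or more); bars are 95% Wilson intervals. Over all loci the share climbs from 26.3% to 84.3%, and within the strongest bin it ends at 89.4%.

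The monomers differed in how much of their KLA binding lay at a Veh peak of the same monomer. JunD had a JunD peak in Veh at 52.7% of its KLA peaks, Jun at 48.3% and ATF3 at 43.0%. Fos had no Veh list to match and JunB matched at 7 of 21667 peaks. Yet 56.2% of Fos peaks and 68.4% of JunB peaks fell at a Veh peak of another monomer. Jun had the largest share of KLA peaks at any Veh peak, 79.5%, and Fos the smallest. In each list the peaks at a Veh peak were the stronger ones, with a median percentile of 55.6 (Jun) to 64.6 (ATF3) against 28.1 (Jun) to 33.4 (Fos) for the others. Looked at from untreated cells, 98.4% of Veh loci with 3 monomers kept a KLA peak, as did 90.2% of those with 2 and 63.0% of those with 1. Each monomer was less frequent at the 25377 loci without a Veh peak than at the 26484 with one. Fos was at 69.0% against 86.1%, ATF3 at 56.2% against 84.6%, JunD at 54.1% against 75.6%, JunB at 26.7% against 56.1% and Jun at 8.98% against 34.1%.

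Sequence followed the number of monomers. A TRE stood in the central 200 bp of 28.1% of all loci, from 20.2% (19.6 to 20.8) at 1 monomer through 23.6%, 26.7% and 33.0% to 42.5% (41.4 to 43.5) at 5. Windows of the same length 2000 bp to the right that touched no locus held a TRE in 3.04% of 48007 cases, and their share did not climb with number (3.23% beside lone loci, 2.81% beside loci of all 5). The median distance from the TRE to the centre of the locus was 24.5 bp at loci of all 5. Among lone monomers the TRE was found at 27.7% of Fos loci, 24.2% of JunB, 16.3% of ATF3, 15.2% of Jun and 12.7% of JunD loci. The CRE was rarer, at 1.65% of all loci against 0.142% of the shifted windows. It was at 3.76% of loci of ATF3 alone, at 7.63% of loci of ATF3 and JunD without the others, and at 0.618% of the loci of all monomers except Jun. Of all combinations the CRE share was highest at ATF3, Jun and JunD without the others, at 23.1% (33 of 143 loci). With Fos as well it was 7.11% of 1182 loci. The PU.1 motif (AGGAAGT) rose from 16% at 1 monomer to 20.1% at 5, and the CEBP motif (TTGCNNAA) from 12.8% to 17.4%. The Runx motif (TGTGGTT) was at 5.85% and 7.27% and the IRF motif (GAAANNGAA) at 7.66% and 9.02%. Shifted windows held PU.1 in 4.91%, CEBP in 7.71%, Runx in 5.03% and IRF in 6.56% of cases. The Runx and IRF shares at loci were the closest of these to the shifted windows. Peaks of the factors themselves showed a steeper rise than their motifs. A PU.1 KLA peak of C57BL/6 lay at 47.3% of all loci, 29.6% with 1 monomer and 72.5% with 5. A CEBPa KLA peak lay at 23.9% of all loci, 8.82% with 1 and 49.4% with 5. These 2 lists come from the other strain, since no BALB/cJ list of PU.1 or CEBPa was used here.

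KLA loci without a Veh peak differed in sequence from those with one. The NFkB motif was at 2.86% of all loci, 4.22% (3.98 to 4.47) of those without a Veh peak and 1.56% (1.41 to 1.71) of those with one. The gap in percentage points was widest at loci of all 5 monomers, where 137 of 1374 loci without a Veh peak held it (9.97%, 8.50 to 11.7) against 189 of 7374 with one (2.56%, 2.23 to 2.95). It was present in each class, with 2.80% against 0.586% at lone monomers. The TRE behaved otherwise. At loci of all 5 it was less frequent without a Veh peak (34.7%) than with one (43.9%), and at lone monomers more frequent without (22.4% against 14.0%). The PU.1 motif was less frequent without a Veh peak, at 14.5% against 21.6% over all loci, and PU.1 peaks of C57BL/6 were at 32.7% and 61.3%. The NFkB comparison was made after the values had been seen. With the strongest 50% of each KLA list it gave 12% against 3.24% at loci of all 5.

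**Figure D4:**
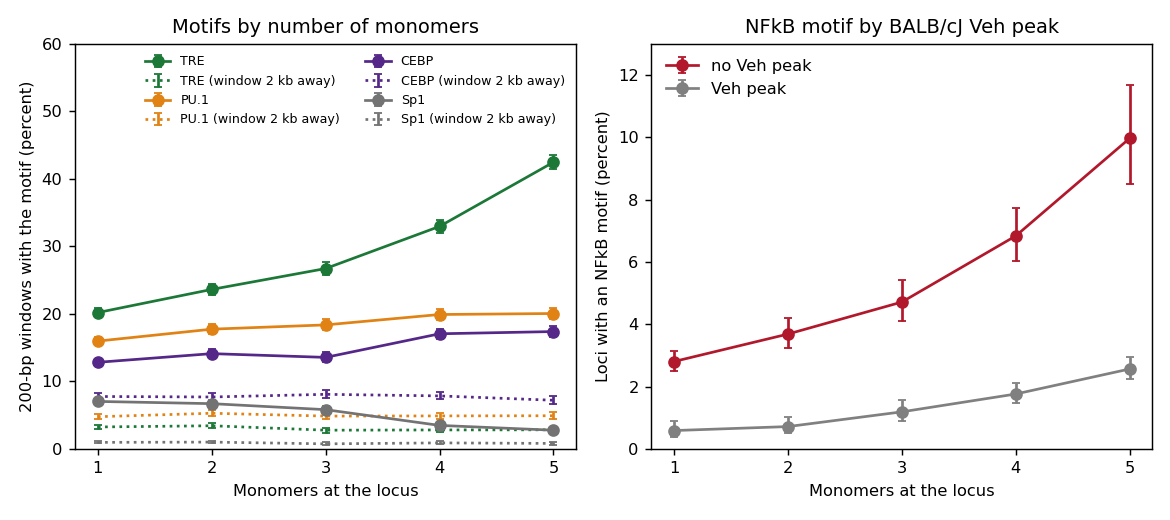
Left, percent of 200-bp windows with a TRE, PU.1, CEBP or Sp1 motif by the number of monomers, at the loci (solid) and 2 kb away (dotted); right, percent of loci with an NFkB motif by the number of monomers and by the presence of a BALB/cJ Veh peak. Bars are 95% Wilson intervals; TRE climbs from 20.2% to 42.5%, and the NFkB motif reaches 9.97% at loci of all 5 without a Veh peak.

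Position ran the other way from number. Of all loci 18.2% had their centre within 1000 bp of the start (TSS) of a protein-coding transcript. The share was 22.8% (22.1 to 23.5) at 1 monomer, 22.2% at 2, 20.1% at 3, 12.3% at 4 and 10.7% (10.1 to 11.4) at 5. The median distance to the nearest TSS was 11.7 kb at loci of 1 monomer and 18.6 kb at loci of 5. Loci of all 5 were in introns in 45.7% of cases and intergenic in 41.6%, against 40.4% and 33.7% at lone monomers. Coding exons held 0.777% and 3' untranslated regions 1.12% of the loci of all 5. The Sp1 motif (GGGCGGGG), a GC-rich element common in promoters, was measured at the same loci. It stood at 5.35% of all loci, at 7.02% with 1 monomer and at 2.75% with 5.

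Loci of Jun and of JunB differed in position. The 2068 loci with Jun but not JunB were promoter-proximal in 40.7% of cases (38.6 to 42.8), and the 12383 with JunB but not Jun in 8.75% (8.26 to 9.26). Loci with both were at 11.1%, and loci with neither at 23.0%. The difference stood in each of the 8 sets of other monomers. With ATF3, JunD and Fos also present it was 39.1% of 1182 loci with Jun against 8.27% of 8570 with JunB, and with no other monomer 43.4% of 99 against 9.38% of 480. The smallest gap was beside ATF3 and Fos, 30.0% of 253 against 7.89% of 1306. Loci with Jun and no JunB also had a CRE more often (6.67% against 0.598%), an Sp1 motif more often (14.1% against 2.04%), an E-box (TCACGTG) more often (5.90% against 1.87%) and a TRE less often (20.5% against 31.9%). Their median GC content was 54.0% against 46.5%. A Veh peak was at 65.1% and 58.0%. With lists of equal length 29.7% of 4419 loci and 6.68% of 4414 were promoter-proximal. Both comparisons were chosen after the combinations had been seen.

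**Figure D5:**
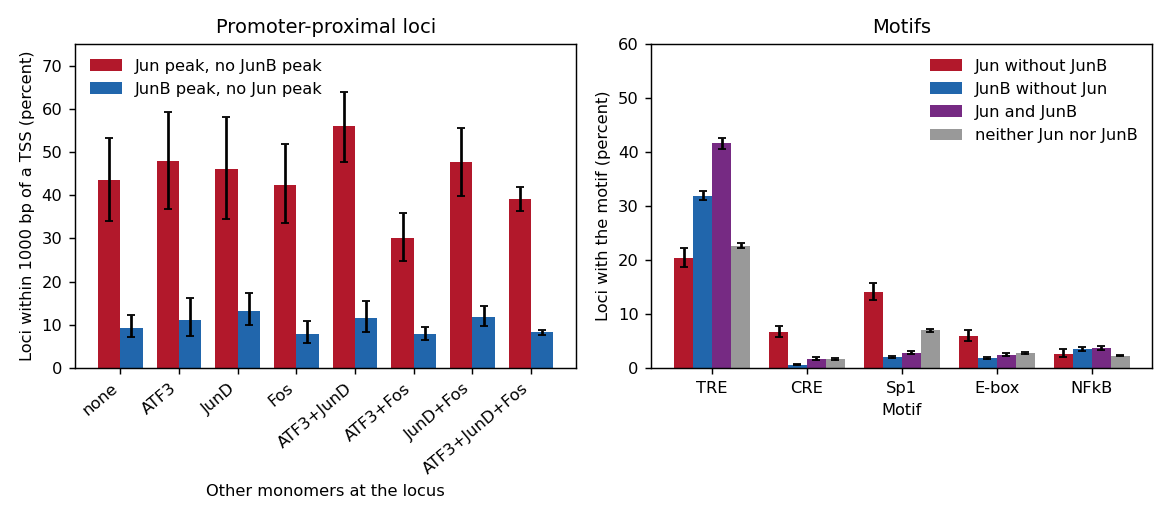
Left, percent of loci within 1000 bp of a TSS for loci with a Jun peak but no JunB peak and the reverse, by the other monomers present; right, percent of loci with each motif in the central 200 bp by the presence of Jun and JunB. Bars are 95% Wilson intervals; the intervals of the 2 classes on the left do not overlap in any set, with Jun at 30.0% or more and JunB at 13.2% or less.

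The share of loci with a peak in C57BL/6 with KLA rose with number, and the gap between 1 and 5 monomers was smaller when only the stronger peaks were used. A peak of any of the 5 monomers in C57BL/6 lay at 72.1% of all loci. The share was 37.6% at 1 monomer, 67.3% at 2, 84.1% at 3, 95.1% at 4 and 98.6% (98.3 to 98.8) at 5. With the strongest 50% of each BALB/cJ list it was 88.0% at 1 monomer and 99.4% at 5. Of the loci of all 5 in BALB/cJ, 61.4% had all 5 in C57BL/6, 22.0% had 4 and 1.41% had none. The 8570 loci without Jun matched by combination in 8.20% of cases only. Among loci of all 5, the C57BL/6 peak of the same monomer was found for ATF3 at 96.9%, JunD at 95.8%, Fos at 89.9%, Jun at 81.3% and JunB at 69.4%. Lone loci had a C57BL/6 peak of their own monomer in 34.5% of cases for ATF3, 16.1% for Fos, 14.1% for JunD, 7.07% for Jun and 3.33% for JunB. The C57BL/6 lists of Fos (24365 peaks) and JunB (13375) were shorter than those of BALB/cJ, which limits what they can match. The C57BL/6 Jun list was longer, with 17480 peaks against 11317. The part of this in the match of the loci without Jun was not tested.

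All genes of the inflammatory lists had at least 1 locus within 5 kb of the gene. Among 21924 protein-coding genes 55.0% had a locus and 16.7% had a locus of all 5 monomers. Against that, each of the 12 AP-1 genes, 12 immediate early genes, 12 NFkB genes, 20 cytokine genes, 8 dual-specificity phosphatase genes, 13 interferon genes and 12 macrophage factor genes had a locus. A locus of all 5 was near 10, 7, 10, 16, 6, 5 and 8 of them. Of 76 ribosomal protein genes 63 had a locus and 5 one of all 5. Long genes and clusters of genes hold more loci by their length alone, and the lists were picked with earlier results known, so the counts are descriptions.

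Several AP-1 genes were bound near their own start. Atf3, Batf and Batf3 had no locus within 1000 bp of the annotated start of the gene. For Atf3 that is the outer start of a 47.7 kb model, and a locus of all 5 inside the model lay within 1000 bp of another transcript start. The Jun promoter had all 5 monomers 0.07 kb from the TSS, with 138 reads for ATF3, 85 for Jun, 114 for JunD, 84 for Fos and 42 for JunB, and a Veh peak of ATF3, Jun and JunD. Jund, which encodes JunD, had all 5 at 0.149 kb with 200 reads for JunD and 109 for ATF3, over a CRE and a CEBP motif. Fosl2, whose product FosL2 is another Fos family member, had all 5 over a TRE at 0.02 kb, and in Veh JunD only. Junb had 3 loci of all 5 among its 10. Atf3 had 4 among 16, but its annotated model spans 47.7 kb. The one 24.2 kb from the annotated start had no Veh peak and 197 reads for ATF3. The one 34.7 kb from it, with 231 reads for ATF3, lay within 1000 bp of the start of a protein-coding transcript. Fosb had 1 locus of all 5, with no Veh peak and 25 to 94 reads. Fos itself had 4 loci, none with more than 4 monomers and all with a Veh peak, and Atf4 had at most 3 monomers.

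Immediate early genes divided. Ier2, Ier3, Ier5, Zfp36, Btg2, Klf6 and Srf had a locus of all 5, whereas the EGR genes Egr1, Egr2 and Egr3 had at most 3 monomers and Nr4a1 and Myc at most 4. At Zfp36, which encodes an RNA-binding protein that destabilises cytokine transcripts, the locus 2.99 kb from the TSS had 259 reads for Fos, 203 for JunD, 200 for ATF3, 94 for JunB and 81 for Jun, with 3 monomers in Veh. Srf had 1 locus in all, at 0.192 kb, with 28 to 68 reads and no Veh peak.

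Among NFkB genes, which encode the subunits of the factor and its inhibitors, Tnip1 had 6 loci of all 5 among 19. The one 8.73 kb into Tnip1 had 371 reads for Fos, 233 for JunD, 213 for JunB, 199 for ATF3 and 105 for Jun, and only JunD in Veh. At the Nfkbiz promoter, 0.122 kb from the TSS, all 5 had a peak with 207 reads for JunD and 206 for Fos, no Veh peak and an NFkB motif. The Nfkbia promoter, the gene of the inhibitor IkBa, had 241 reads for Fos and 182 for JunD over an NFkB motif, with ATF3 alone in Veh. Nfkb1 had 30 loci over its 107 kb, of which 26 had no Veh peak. Over the list, 67.5% of 120 loci had no Veh peak, beside 48.9% of all loci. Relb had at most 3 monomers and Nfkbib 4.

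Cytokine genes had 131 loci, of which 30 (22.9%) had all 5 monomers and 66.4% had no Veh peak. Tnf had all 5 at its promoter, with 225 reads for JunD, 179 for Fos, 139 for ATF3, 77 for Jun and 68 for JunB, and in Veh only ATF3. Il1b had 300 reads for Fos at its promoter and 275 at 2.40 kb, both loci with ATF3, Jun and JunD in Veh. Il6, whose TRE window is printed above, had 98 reads for Fos, 97 for ATF3, 84 for JunD, 72 for JunB and 37 for Jun and no Veh peak. Cxcl10, an interferon-induced chemokine, had 218 for Fos, 157 for JunD and 131 for ATF3, again with no Veh peak. Cxcl1, Ccl5 and Il10 likewise had 1 locus of all 5 with no Veh peak each, and the Ccl5 promoter held an NFkB motif. Il1rn, the gene of the IL-1 receptor antagonist, had 3 loci of all 5, each with all 3 monomers in Veh. Il12b had no more than 2 monomers, Cxcl3 3, and Il1a and Ccl7 4.

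Loci of JunD alone made up a larger share near most of the gene lists than over all loci. JunD alone made up 7.90% of all loci, but 31 of 131 (23.7%) at cytokine genes, 26 of 120 (21.7%) at NFkB genes and 20 of 59 (33.9%) at interferon genes. It also made up 14 of 74 (18.9%) at AP-1 genes, 12.3% at phosphatase genes, 11.7% at immediate early genes and 13 of 138 (9.42%) at macrophage factor genes. At the cytokine genes 29 of the 31 (93.5%) had no Veh peak, beside 79.0% of all lone JunD loci. By position 14 of them lay inside the gene, 9 past its end, 6 within 1000 bp of its start and 2 further upstream, while loci of all 5 lay near the start in 13 of 30 cases and upstream in 10. Il1a and Il1b each had 5, with 33 to 64 and 31 to 145 reads. The highest JunD counts of any lone JunD locus were 193 past the end of Tnf and 145 past the end of Il1b, at percentiles 98.7 and 94.6 of the JunD list. Next to the Tnf locus, without touching it, lay a locus of Jun, JunD and Fos with 257 reads for JunD, 44 for Fos and 18 for Jun. A JunD peak of C57BL/6 was at 5 of the 31, beside 14.1% of all lone JunD loci, and at 30 of the 30 loci of all 5, beside 95.8% genome-wide, so both were near the background. The lowest count in the C57BL/6 JunD list was 120, beside 17 in BALB/cJ, and the part of this in the comparison was not tested. Ribosomal protein genes also had many, 32 of 132 loci (24.2%). Macrophage marker genes had few, 1 of 82 (1.22%). The markers of T cells had 0 of 7, B cells 1 of 8, neutrophils 1 of 12 and hepatocytes 0 of 1.

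At interferon genes 10 of 59 loci (16.9%) had all 5 monomers, the same share as over all loci. Ifnb1 had 2, and the one 0.136 kb upstream had 75 reads for Fos, 57 for ATF3, 40 for JunD, 33 for Jun and 26 for JunB, no Veh peak and peaks of ATF3, Jun and JunD in C57BL/6. Isg15 had 2, Rsad2 4 among 15, and Irf1 and Oasl1 1 each. The interferon-induced genes Ifit1, Ifit2 and Ifit3 had 2, 4 and 3 loci, all without a Veh peak and none with all 5 monomers, and the Fos locus between Ifit2 and Ifit3 counts for both. Stat2, Irf7 and Mx1 had at most 3 monomers and Irf9 at most 2. Of the phosphatases, which switch off MAP kinases, Dusp1 had 8 loci of all 5 among 29, but its annotated model spans 56.5 kb and these loci lie 22.1 to 53.6 kb from its annotated start. That distance does not tell whether any of them lies at another transcript start inside the model. Dusp2 and Dusp6 each had 1 locus of all 5 at the promoter, with 166 and 115 reads for Fos and no Veh peak. Dusp5 and Dusp10 had at most 4 monomers.

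At macrophage factor genes 22 of 138 loci (15.9%) had all 5 monomers. Spi1, the gene of PU.1, had 4 loci of all 5, each with a Veh peak, and Runx1 had 5 among 30, with up to 410 reads for Fos at the one 205 kb into its annotated model. Mitf had 6 among 40. Over the list 46.4% of the loci had no Veh peak, close to the 48.9% of all loci. Cebpa had at most 4 monomers, Klf4 3 and Maf 1.

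The strongest shared loci lay away from promoters. The 5 loci whose lowest percentile over the 5 lists was highest, from 99.9 upwards, were 8642 bp to 166914 bp from the nearest TSS, in 4 introns and 1 intergenic region. The nearest starts were those of Mrpl39, Cdc42bpg, Sfn, Bach1 and Ank2. Each held a TRE, and all had ATF3, Jun and JunD in Veh. The top locus, 108513 bp from Mrpl39, had 346 reads for ATF3, 148 for Jun, 269 for JunD, 416 for Fos and 240 for JunB. At C57BL/6 it lacked the Jun peak, and that near Cdc42bpg the JunB peak. Bach1 encodes a basic leucine zipper repressor, whose locus 26020 bp downstream of the start had 357 reads for ATF3 and 421 for Fos.

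Strong loci of 1 monomer were few. The highest lone ATF3 locus, 32268 bp from Popdc2, had 258 reads, the 99.6 percentile of the list, with ATF3 and JunD in Veh, no C57BL/6 peak of any monomer and none of the 9 motifs. The next, at the Bud31 promoter, had 131. Lone Fos loci reached 181 reads near Plpp3 and 157 near Rgl1, lone JunB loci 87 near Msmo1 and 65 near Il23a, and lone Jun loci 36 near Ric8b and 33 near Thra. A locus of ATF3 and Fos lay next to the lone JunB locus of Il23a without touching it.

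By nearest TSS, the 8748 loci of all 5 fell to 4198 genes, of which 2323 had 1. Trib1, which encodes a pseudokinase that regulates CEBP proteins, had 23 of its 66 loci with all 5 monomers, followed by Lpp with 21 of 98, Zeb2 with 20 of 101 and Gm5426 with 19 of 50. Btg1 and Klf6 had 17 each, Irf2bp2, Jarid2 and Tomm20 16, and Cd44, a hyaluronan receptor, 15. In all 10, most had a Veh peak, with 1 to 6 loci of all 5 lacking one. Loci were spread over the chromosomes at 15.9 to 31.1 per Mb on the autosomes and at 5.25 per Mb on the X. Male cells carry a single X, and the part of copy number in this was not tested. The share with all 5 was 15.8% to 19.1% on autosomes and 7.24% on the X.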

How the data were processed

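BALB/cJ TGEMs were cross-linked and ATF3, Jun, JunD, Fos and JunB were precipitated, each with its own antibody. According to the study's methods and the submitters' processing notes, the authors aligned reads with Bowtie2 to a custom BALB/cJ genome and moved positions back to mm10. Peak calling used HOMER and the input of the same treatment, and peaks with an irreproducible discovery rate (IDR) under 0.05 between replicates were kept as 1 list. The deposited count of each peak is a whole number of reads with no scaling to library size that the values show. How replicates were combined in it is not given in the sources used here. The deposited score is the scaled IDR score. The score was used only as an alternative. The depth of the libraries is not given in these files, so ranks within a list were used.

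Peaks were joined where they overlapped by 1 bp or more. The highest count per monomer stood for a locus. Motifs were searched as exact letters on both strands in the central 200 bp of GRCm38, positions were taken from GENCODE M21 and distances ran from the locus centre. The files do not state whether starts count from 0, so coordinates are as given. Shares carry 95% Wilson intervals. With 1 list per condition no test between conditions was possible and no p-value is given. Overlap, merging and interval code was tested on simulated data. Members, gene lists and named loci were chosen with earlier results of these data known. Named loci were the 5 loci of all 5 monomers with the highest lowest percentile, the 2 highest counts of each lone monomer and the 10 genes nearest to most loci of all 5. Alternatives were peak centres within 100 bp, 50% reciprocal overlap, only the stronger 50% of peaks, equal list lengths, each list left out, other windows and other distances. Some genes of the lists are not reported here by name. Python 3.11.15, pandas 2.3.3, numpy 2.4.6, scipy 1.17.1 and matplotlib 3.10.9 were used.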

Additional observations from a re-analysis of the deposited data

How the results depend on the processing

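No paired analysis was possible because each condition has 1 list and the labels give no replicate numbers. Of 77 alternative values for 18 results, 6 stayed within the interval of the reported one and 71 moved beyond it, and the cause of each shift was not tested. Loci of 1 monomer outnumbered those of all 5 except with equal lengths, and loci of all 4 outnumbered lone ones without Jun. In the other pairs below the order of the 2 classes was as reported. Loci of 1 and of 5 monomers were 31.9% and 16% with centres within 100 bp, 31% and 16.2% with 50% reciprocal overlap, 25.7% and 20.4% with the strongest 50% of each list, and 28.1% and 29.3% with equal lengths. Over 4 lists, 1 monomer and all 4 were 36.2% and 18.6% without ATF3, 31.7% and 18.7% without JunD, 36.1% and 19.3% without Fos, 30.0% and 19.3% without JunB, and without Jun all 4 were 33.4%. The median of the 20 directed overlaps was 75.5% and became 73.2%, 73.8%, 79.0% and 77.5% in the same 4 settings, but with equal lengths Jun went from the most to the least contained list. Equal lengths kept every Jun peak and only the strongest of the other lists. The median rho was 0.85, 0.67 over all loci with 0 for no peak and 0.47 with the IDR score. Veh peaks at all, 5-monomer and 1-monomer loci were 47.9%, 82.8% and 23.9% with centres within 100 bp, 71.7%, 90.5% and 53.1% with the strongest 50% of KLA lists, 29.8%, 71.0% and 6.16% with the strongest 50% of Veh lists, and 77.0%, 91.0% and 62.5% with equal KLA lengths. In the 5 strength bins, weakest first, lone loci had 20.0%, 31.2%, 40.2%, 48.8% and 47.5%, and in the upper 4 those of all 5 had 36.0%, 58.6%, 73.1% and 89.4%. Promoter-proximal shares at 5 and 1 monomers were 18.2% and 31.6% within 3000 bp, 14.1% and 26.6% with starts of all genes, and 7.51% and 21.6% with the strongest 50%. TRE shares were 33.1% and 16.4% in 100 bp, 47.7% and 25.4% with the strongest 50%, and 43.9% and 24.4% over 1000 bp from a TSS. C57BL/6 KLA peaks at 1 monomer were 36.6% with centres within 100 bp, and 99.4% at 5 and 88.0% at 1 with the strongest 50%. Genes with a locus of all 5 were 25.1% within 20 kb and 9.99% with the strongest 50%. With the strongest 50% the AP-1 list had 6 in place of 10 such genes, phosphatases 3 in place of 6, interferon genes 3 in place of 5, ribosomal protein genes 2 in place of 5 and neutrophil markers 0 in place of 4, and within 20 kb interferon genes had 8, ribosomal protein genes 12, and T cell and hepatocyte markers 1 each. Alternatives chosen after seeing the data gave, for Jun without JunB and the reverse, 47.8% and 17.2% within 3000 bp, 33.3% and 7.11% with the strongest 50%, and 29.7% and 6.68% with equal lengths. For the NFkB motif without and with a Veh peak they gave 12% and 3.24% with the strongest 50% and 12.4% and 3.03% with equal lengths.

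Peak lists hold only what passed the IDR limit, so an absent peak is not absent binding. The Fos Veh list was empty and the JunB Veh list had 9 peaks, and the cause was not tested. Motifs were read from the C57BL/6J reference.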
